A study of Mus musculus with 30 samples.

Results

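The 10 genes described here encode the enzymes and partners that write, copy and remove methyl groups on cytosine in DNA: Dnmt1, Uhrf1 and Uhrf2 (maintenance), Dnmt3a, Dnmt3b and Dnmt3l (de novo methylation), and Tet1, Tet2, Tet3 and Tdg (removal). They were chosen by symbol, for their function. All 10 were found, among 52177 genes that 2 RNA-seq count tables share, and all 10 passed the filter on low counts in both tables. Both tables come from E14tg2a mouse embryonic stem cells (mESCs). In the time course, cells in Serum/LIF at 0 h (3 libraries) were compared with cells in Enhanced Metabolic Media (EMM) for 3, 9 or 24 h (3 libraries each). The control is labelled 0 h, while the description of the treatment gives 24 h in Serum/LIF, so the time of the control is not settled here. EMM is Serum/LIF medium in which D-galactose takes the place of D-glucose and pyruvate. In the passage experiment, cells were kept for 10 passages (P10) or 20 passages (P20) in Serum/LIF, in EMM, or in 2i/LIF, with 3 libraries for each medium and passage. 2i/LIF holds inhibitors of the kinases MEK and GSK3. The paper counts it among defined conditions, while Serum/LIF and EMM hold serum. Contrasts with 2i/LIF thus cover the base medium and serum as well as the inhibitors. All groups received LIF, no group is labelled with an engineered mutation, and all results rest on a single cell line. The titles number replicates, and the study describes independent experiments.

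DNA methylation in mammals sits mainly on cytosines that precede guanines (CpG). DNMT3A and DNMT3B place it on unmethylated DNA, and DNMT3L, which has no catalytic activity, binds and stimulates them. After replication DNMT1 copies the mark to the new strand, led there by UHRF1, which reads hemimethylated CpG, while its paralogue UHRF2 cannot replace it in this role. TET1, TET2 and TET3 oxidise 5-methylcytosine, and TDG excises the oxidised bases so that repair can restore cytosine. In mESCs, Serum/LIF cultures are known for high genome methylation, and 2i/LIF cultures for low methylation together with low Dnmt3a, Dnmt3b and Dnmt3l. No DNA methylation was measured in the tables used here, which hold RNA levels only.

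Library totals ran from 24074132 to 35301962 counts in the time course and from 6944904 to 27912928 in the passage experiment. The shallowest was P20 2i/LIF replicate 1, which also stood apart from its replicates, so each result for P20 2i/LIF was computed with and without it. P10 2i/LIF replicate 1 also differed more from its replicates (chi-square per degree of freedom of 20.4 and 30.1) than they did from each other (6.52). Without it the counts of genes called stayed at 7 for P10 EMM against 2i/LIF and 5 between passages in 2i/LIF, and went from 10 to 9 for P10 2i/LIF against Serum/LIF, where Tet1 was lost. Markers of embryonic stem cells (7 of 7 genes tested, including Pou5f1, Sox2 and Nanog) summed to between 3022 and 4729 CPM (counts scaled to a fixed library total) in every library. The P10 EMM libraries, at 4199.9 to 4729 CPM, stood above those of P10 Serum/LIF (3022 to 3280.4) and P10 2i/LIF (3262 to 3358), and the part of this in the P10 results was not tested. The P20 EMM libraries, at 3347.7 to 3419.3 CPM, stood below those of P20 Serum/LIF (3566.8 to 3844.7) and P20 2i/LIF (3689.3 to 3920.9). The part of this in the P20 results was not tested either. A fibroblast feeder list of 6 genes summed to between 141 and 170 CPM in P10 Serum/LIF and 228 and 454 CPM in P20 Serum/LIF, against 2.89 to 23.3 CPM in the EMM and 2i/LIF libraries of the same experiment. In the time course it summed to between 60.9 and 63.9 CPM in Serum/LIF and 42.1 and 49.99 at 24 h, with no overlap, and to between 56.2 and 69.1 at 3 h and 9 h. At 24 h a mesoderm list of 4 genes was also lower (12.8 to 14.6 CPM, against 17.2 to 18.8 in Serum/LIF) and a primitive endoderm list of 6 higher (14.96 to 15.9, against 11.2 to 11.5). A neural list of 4 genes summed to 126 to 155 CPM in Serum/LIF, 209 to 217 at 3 h, 156 to 189 at 9 h and 143 to 158 at 24 h, so that only 24 h overlapped Serum/LIF. The part of these lists in the time-course results was not tested. Col1a1 had means of 1895 and 3775 normalised counts in P10 and P20 Serum/LIF, while Lum and Dcn, also on the list, had at most 2.89 and 16.3 there. A trophoblast list of 6 genes, led by Krt8, was also highest in P10 Serum/LIF (380 to 466 CPM). At P10 the neural list summed to 179 to 197 CPM in Serum/LIF, 86.9 to 102 in EMM and 38.3 to 61.9 in 2i/LIF. The primitive endoderm list had 11.1 to 14.4 in Serum/LIF and 4.39 to 6.58 in the other media, and the mesoderm list 6.46 to 7.59 in EMM against 18.3 to 57.9 in the others. At P20 2i/LIF had the highest neural sums (148 to 182, against 116 to 131) and the lowest of primitive endoderm (4.82 to 8.59, against 12.8 to 19.6), and the mesoderm list had 21.2 to 23.1 in Serum/LIF, 3.01 to 4.53 in EMM and 8.73 to 11.6 in 2i/LIF. The part of these 3 lists in the passage results was not tested. The feeder and trophoblast differences move with every passage comparison against Serum/LIF given below, and their part in those results was not tested. In the time course the trophoblast list summed to 125 to 133 CPM in Serum/LIF, 157 to 178 at 3 h, 188 to 199 at 9 h and 200.71 to 201.999 at 24 h, with no overlap between groups, and its part in the time-course results was not tested either. In bulk libraries, fewer cells with a transcript and less transcript per cell cannot be told apart. A gene is called different below when the adjusted p of edgeR's quasi-likelihood test is under 0.01, and log2 fold changes carry standard errors (SE) from the same fit. Levels are normalised read counts, which can be compared between groups of a table for the same gene.

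To show what separates the de novo genes from each other upstream of their starts, the 250 bases before a RefSeq transcription start (GRCm38.p6) are given 5′ to 3′ with every CpG in capitals. The start was, for each gene, the first whose window holds no annotated exon. The Dnmt3a window is chr12:3806730-3806979 (plus strand), the Dnmt3b window chr2:153649199-153649448 (plus strand) and the Dnmt3l window chr10:78049592-78049841 (plus strand, the second of 3 starts).
Dnmt3a: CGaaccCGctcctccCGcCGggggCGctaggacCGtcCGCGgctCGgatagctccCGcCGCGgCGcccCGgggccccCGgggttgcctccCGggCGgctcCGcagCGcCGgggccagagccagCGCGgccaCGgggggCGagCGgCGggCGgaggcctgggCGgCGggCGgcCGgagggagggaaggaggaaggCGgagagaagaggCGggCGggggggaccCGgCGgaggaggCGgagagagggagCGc
Dnmt3b: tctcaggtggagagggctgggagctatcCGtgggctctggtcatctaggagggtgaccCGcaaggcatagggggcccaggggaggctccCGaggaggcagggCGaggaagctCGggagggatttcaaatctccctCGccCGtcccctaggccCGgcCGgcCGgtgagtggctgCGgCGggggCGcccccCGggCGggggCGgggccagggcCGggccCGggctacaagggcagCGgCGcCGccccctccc
Dnmt3l: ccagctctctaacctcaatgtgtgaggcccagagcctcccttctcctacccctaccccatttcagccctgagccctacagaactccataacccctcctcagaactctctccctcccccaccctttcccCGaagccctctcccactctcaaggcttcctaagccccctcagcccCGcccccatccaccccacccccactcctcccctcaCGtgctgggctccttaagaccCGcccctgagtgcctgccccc
The Dnmt3a window holds 38 CpG and the Dnmt3b window 21, more than 98.1% and 83.7% of all 32851 windows of this length, for which the median is 6. The Dnmt3l window holds 4, more than 37.8% of windows, and the other Dnmt3l starts have 5 and 3. All 10 genes matched a window. Tet2 had the most CpG, with 51, and Uhrf2, Tdg and Tet3 had 23, 19 and 17. For the maintenance genes, windows were also searched on both strands for 4 E2F-type words, TTTCGCGC, TTTGGCGC, TTTCCCGC and TTTGCCGC, which 1.86% of all windows hold. Of the 17 windows of the 10 genes, 2 held a match, for Dnmt1 (the third start) and Uhrf1 (second start, chr17:56304063-56304312, plus strand, 185 bases before the start). The Uhrf1 window is given with the match in capitals.
Uhrf1: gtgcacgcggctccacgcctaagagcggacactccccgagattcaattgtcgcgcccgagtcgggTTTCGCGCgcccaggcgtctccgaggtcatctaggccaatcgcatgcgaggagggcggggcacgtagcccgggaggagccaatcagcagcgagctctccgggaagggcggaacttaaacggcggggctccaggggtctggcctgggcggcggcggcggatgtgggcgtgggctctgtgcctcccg
The count tables do not say which start a transcript came from, so these windows describe the genes and not the libraries.

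Within 24 h of EMM, the de novo enzymes Dnmt3a and Dnmt3b lost most of their transcript while the edgeR fit of all groups with TMM scaling, which gives the calls below unless another is named, did not call the maintenance enzyme Dnmt1 or the 3 Tet genes. Of the 10 genes, 4 were called at 3 h against Serum/LIF (1 higher, 3 lower), 5 at 9 h (1 higher, 4 lower) and 5 at 24 h (all lower). Over all 16049 genes tested, 34.5%, 38.2% and 44% were called in the same comparisons, so the number of genes called was near the background at each time. Among the called, Dnmt3a and Dnmt3b moved more than most genes: at 9 h their changes exceeded in size those of 98.3% and 97.2% of all genes tested. The median log2 fold change of the 10 genes was −0.06, −0.12 and −0.11 at 3, 9 and 24 h, against −0.013, −0.0046 and 0.0001 over all genes tested.

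**Figure D1:**
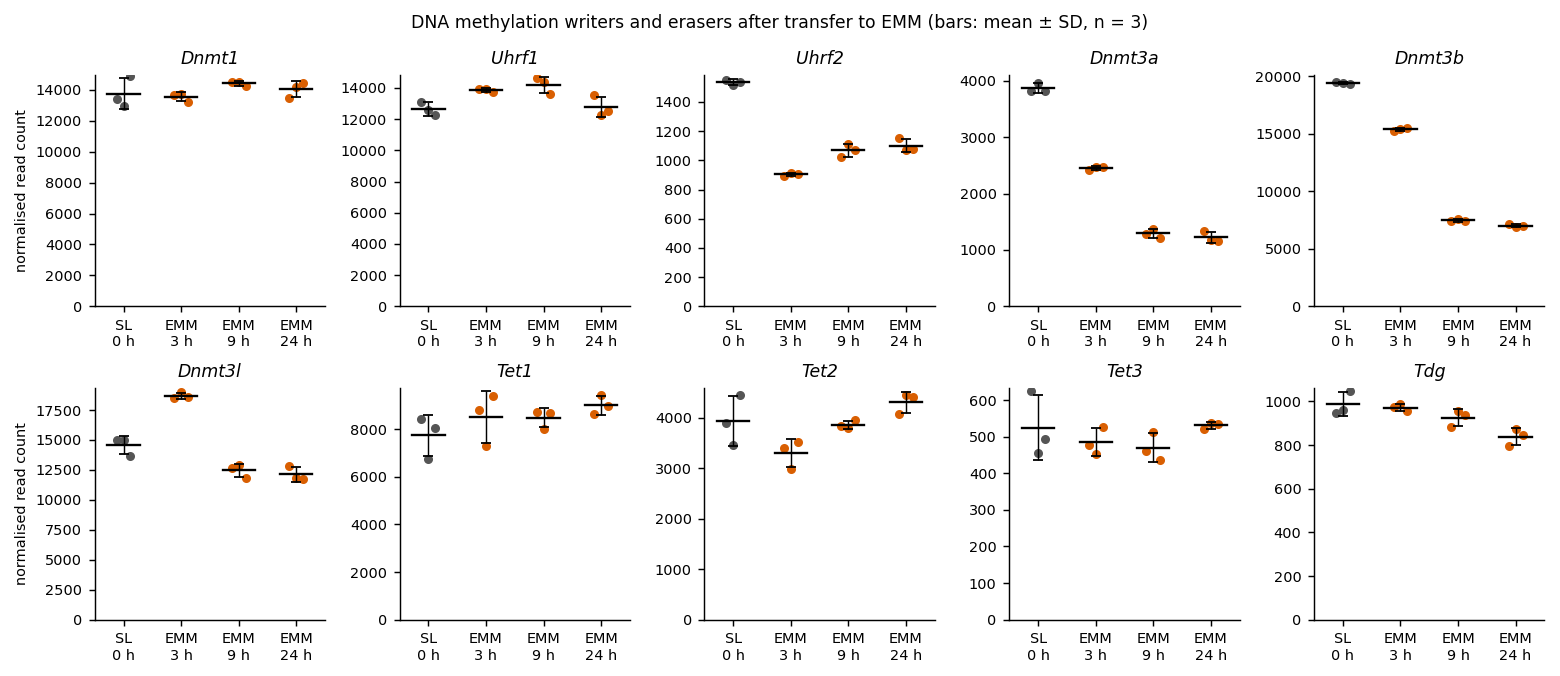
Normalised read counts of the 10 genes in the 12 time-course libraries, by time in EMM (x axis) with Serum/LIF (SL) at 0 h; points are libraries and bars mean ± SD (n = 3). Dnmt3a and Dnmt3b step down between 0 h and 9 h and then level off, Uhrf2 is lowest at 3 h, Dnmt3l is highest at 3 h, and Dnmt1 and the Tet genes overlap between most groups.

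Dnmt3a (ENSMUSG00000020661, chromosome 12, 3806007 to 3914443 of GRCm38), a de novo methyltransferase, had 3827, 3969 and 3810.4 normalised counts in the Serum/LIF libraries. It had 2416, 2478 and 2468 at 3 h, 1289.6, 1373 and 1220.0 at 9 h, and 1330.1, 1184 and 1154 at 24 h of EMM. Every EMM library was below every Serum/LIF library, and the 9 h and 24 h libraries overlapped. The log2 fold change against Serum/LIF was −0.66 (SE 0.05, edgeR adjusted p = 9.45e-08) at 3 h, −1.58 (SE 0.05, adjusted p = 1.78e-11) at 9 h and −1.66 (SE 0.05, adjusted p = 4.56e-12) at 24 h. Dnmt3b (ENSMUSG00000027478, chromosome 2, 153649450 to 153687730), the other de novo enzyme, started from a level per kilobase of exon that was 16.4 ± 0.356 times (SD, n = 3) that of Dnmt3a. Its libraries held 19504, 19428 and 19299 normalised counts in Serum/LIF, 15232, 15436 and 15509 at 3 h, 7459.9, 7590.4 and 7379 at 9 h, and 7171, 6879 and 6972 at 24 h. No 2 of these groups overlapped. The log2 fold change was −0.33 (SE 0.03, adjusted p = 5.31e-07) at 3 h and −1.38 (SE 0.03, adjusted p = 2.92e-13) at 9 h. At 24 h it was −1.47 (SE 0.03, adjusted p = 6.06e-14). Dnmt3a was thus at 0.634 of its Serum/LIF level after 3 h and Dnmt3b at 0.793, and by 24 h they were at 0.316 and 0.361.

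Dnmt3l (ENSMUSG00000000730, chromosome 10, 78041947 to 78063622), the cofactor without catalytic activity, took another course. Its libraries had 15019.6, 15005 and 13670.4 normalised counts in Serum/LIF and 18460.4, 18976 and 18569.7 at 3 h, so every 3 h library was above every control. At 9 h they had 12618, 12914 and 11858, and at 24 h 12857, 11799 and 11729, all below the controls. The log2 fold changes were 0.36 (SE 0.05, edgeR adjusted p = 2.02e-05), −0.22 (SE 0.05, adjusted p = 0.00108) and −0.26 (SE 0.05, adjusted p = 0.000239). The call at 9 h was lost without Serum/LIF replicate 2 (log2 fold change −0.18, adjusted p = 0.01). Since Dnmt3b fell by more, the ratio of Dnmt3l to Dnmt3b, both per kilobase, was 1.28 ± 0.0624 (SD, n = 3) in Serum/LIF and 2.96 ± 0.0971 (SD, n = 3) at 24 h, with no overlap. Dnmt3l shares 67 exon bases with Aire on the opposite strand, and the strand setting of the time-course counting is not given in the sources used here. Aire had 486 to 818 counts in these libraries, so reads assigned to Dnmt3l outnumbered those assigned to Aire in each.

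From 3 h to 9 h of EMM, 4 of the 10 genes were called (1 higher, 3 lower; 26.5% of all genes). Tet2 was not among them, but its libraries did not overlap (2986 to 3513 normalised counts at 3 h and 3788 to 3947 at 9 h; 0.23, adjusted p = 0.0268), and it was called with the replicate block (adjusted p = 0.00745), with only the 2 groups (0.00456) and without the filter on low counts (8.46e-05). Dnmt3a changed by −0.92 on the log2 scale (SE 0.05, adjusted p = 2.22e-08), Dnmt3b by −1.04 (SE 0.03, adjusted p = 4.74e-11) and Dnmt3l by −0.58 (SE 0.05, adjusted p = 3.93e-07). From 9 h to 24 h, edgeR called 0 of the 10 (13% of all genes). At an unadjusted p under 0.05 there were 3, Dnmt3b, Tdg and Uhrf1, where 23.7% of all genes passed 0.05 even after adjustment. DESeq2 called 1, Uhrf1 (log2 fold change −0.16, adjusted p = 0.00487). Uhrf1 was also called by edgeR without 9 h replicate 3 (−0.19, adjusted p = 0.00756) or without 24 h replicate 1 (−0.20, adjusted p = 0.003), or once replicate number entered as a blocking term (−0.15, adjusted p = 0.00727).

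Of the 3 maintenance genes, Uhrf2 alone was called at each time against Serum/LIF. Uhrf2 (ENSMUSG00000024817, chromosome 19, 30030513 to 30093722), a paralogue of Uhrf1, had 1552, 1513 and 1538 normalised counts in Serum/LIF. It had 893, 912 and 906 at 3 h, 1022, 1113 and 1071 at 9 h, and 1150.3, 1073 and 1078 at 24 h. All EMM libraries were below the controls, and the 3 h libraries were the lowest. The log2 fold change was −0.76 (SE 0.05, edgeR adjusted p = 6.97e-09) at 3 h, −0.52 (SE 0.05, adjusted p = 2.65e-07) at 9 h and −0.48 (SE 0.05, adjusted p = 4.47e-07) at 24 h, and the rise from 3 h to 9 h was 0.24 (SE 0.05, adjusted p = 0.000786). Uhrf1 (ENSMUSG00000001228, chromosome 17, 56303321 to 56323486), the reader of hemimethylated CpG, had 12285 to 13124 normalised counts in Serum/LIF and 13593 to 14613 at 9 h. The 9 h difference was 0.17 on the log2 scale (SE 0.04, adjusted p = 0.00445). That call was lost with library totals as the only scaling (0.14, adjusted p = 0.011), and without Serum/LIF replicate 3 (0.16, adjusted p = 0.0105), 9 h replicate 1 (0.16, adjusted p = 0.0144) or 9 h replicate 2 (0.16, adjusted p = 0.0181). At 3 h Uhrf1 had a log2 fold change of 0.13 (adjusted p = 0.0192), which DESeq2 called (adjusted p = 0.00622), as did edgeR under 5 of its alternatives (adjusted p from 0.00325 to 0.00815), and at 24 h of 0.01 (adjusted p = 0.804). Dnmt1 (ENSMUSG00000004099, chromosome 9, 20907209 to 20959888), the maintenance enzyme, had 12968 to 14879 normalised counts in Serum/LIF and 13201 to 14516 over the 9 EMM libraries. Its log2 fold change lay between −0.02 and 0.07 (SE 0.05) at the 3 times, with adjusted p from 0.236 to 0.73, and edgeR called it only at 9 h without Serum/LIF replicate 3 (0.14, adjusted p = 0.00693). A list of 20 S phase genes summed to between 5543 and 5639 CPM in Serum/LIF and 4431 and 4603 CPM at 24 h, with 15 of 20 lower and 2 higher, against 22.2% and 21.8% of all genes. Dnmt1 and Uhrf1 are genes of cycling cells, and whether this shift moved them was not tested.

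Among the genes for removal, Tdg was the gene called in the fit of all groups, at 24 h, and other fits also called Tet1 or Tet2. Tdg (ENSMUSG00000034674, chromosome 10, 82629828 to 82650799), the glycosylase, had 948, 962 and 1049.7 normalised counts in Serum/LIF and 796, 872 and 847 at 24 h. These groups did not overlap, and the log2 fold change was −0.24 (SE 0.06, edgeR adjusted p = 0.00196). The call was lost without Serum/LIF replicate 3 (−0.18, adjusted p = 0.0157) or 24 h replicate 1 (−0.19, adjusted p = 0.0153), and when only those 2 groups were fitted (−0.23, adjusted p = 0.0108). Tet1 (ENSMUSG00000047146, chromosome 10, 62804570 to 62908996), the most abundant Tet gene per kilobase, had 8415, 6743 and 8025 normalised counts in Serum/LIF and 8635, 9427 and 8950.1 at 24 h. Its 24 h libraries were all above the controls, at 0.22 on the log2 scale (SE 0.09, adjusted p = 0.0405). Without the filter on low counts Tet1 was called at 3 h (0.16, adjusted p = 0.00315), 9 h (0.16, adjusted p = 0.00338) and 24 h (0.25, adjusted p = 1.03e-06). Tet2 (ENSMUSG00000040943, chromosome 3, 133463679 to 133545139) had 3888, 3462 and 4439 in Serum/LIF and 3391, 2986 and 3513 at 3 h. That change of −0.25 on the log2 scale (SE 0.08) had an adjusted p of 0.0127 in edgeR and 0.00454 in DESeq2, and edgeR called it without Serum/LIF replicate 2 (−0.33, adjusted p = 0.00158), with library totals (−0.32, adjusted p = 0.00271), chromosome scaling (−0.26, adjusted p = 0.00729) or the replicate block (−0.25, adjusted p = 0.00346), and without the filter (−0.23, adjusted p = 7.58e-05). Without Serum/LIF replicate 3, Tet2 was also called at 24 h (0.24, adjusted p = 0.00676), as it was without the filter (0.16, adjusted p = 0.0065). Tet3 (ENSMUSG00000034832, chromosome 6, 83362373 to 83459084) had the lowest level per kilobase of the 10 genes in every group, with 436 to 624 normalised counts over the 12 libraries, and its adjusted p was 0.216 or more at each time.

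After 10 passages the same medium was accompanied by a different balance: Dnmt3l stood far above its Serum/LIF level, Dnmt3b far below it, and Dnmt1, Uhrf1 and Tet1 above it. At P10, 7 of the 10 genes were called between EMM and Serum/LIF (4 higher, 3 lower; 37.4% of all 16054 genes tested). Between EMM and 2i/LIF 7 were called (6 higher, 1 lower; 45.1%), and between 2i/LIF and Serum/LIF all 10 (3 higher, 7 lower; 52%). At P20, edgeR called 0 of the 10 between EMM and Serum/LIF (26% of all genes). Between EMM and 2i/LIF 8 were called (6 higher, 2 lower; 48.6%), and between 2i/LIF and Serum/LIF 8 (2 higher, 6 lower; 44.2%). The comparisons at a passage share their libraries. The median log2 fold change of the 10 genes was 0.02 in EMM against Serum/LIF at P10 and 0.05 at P20, against 0.012 and −0.0004 over all genes tested. In 2i/LIF against Serum/LIF it was −0.79 and −0.51, against 0.018 and −0.0061 over all genes. Against 2i/LIF the EMM median was 0.96 and 0.69, against 0.013 and 0.020 over all genes.

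**Figure D2:**
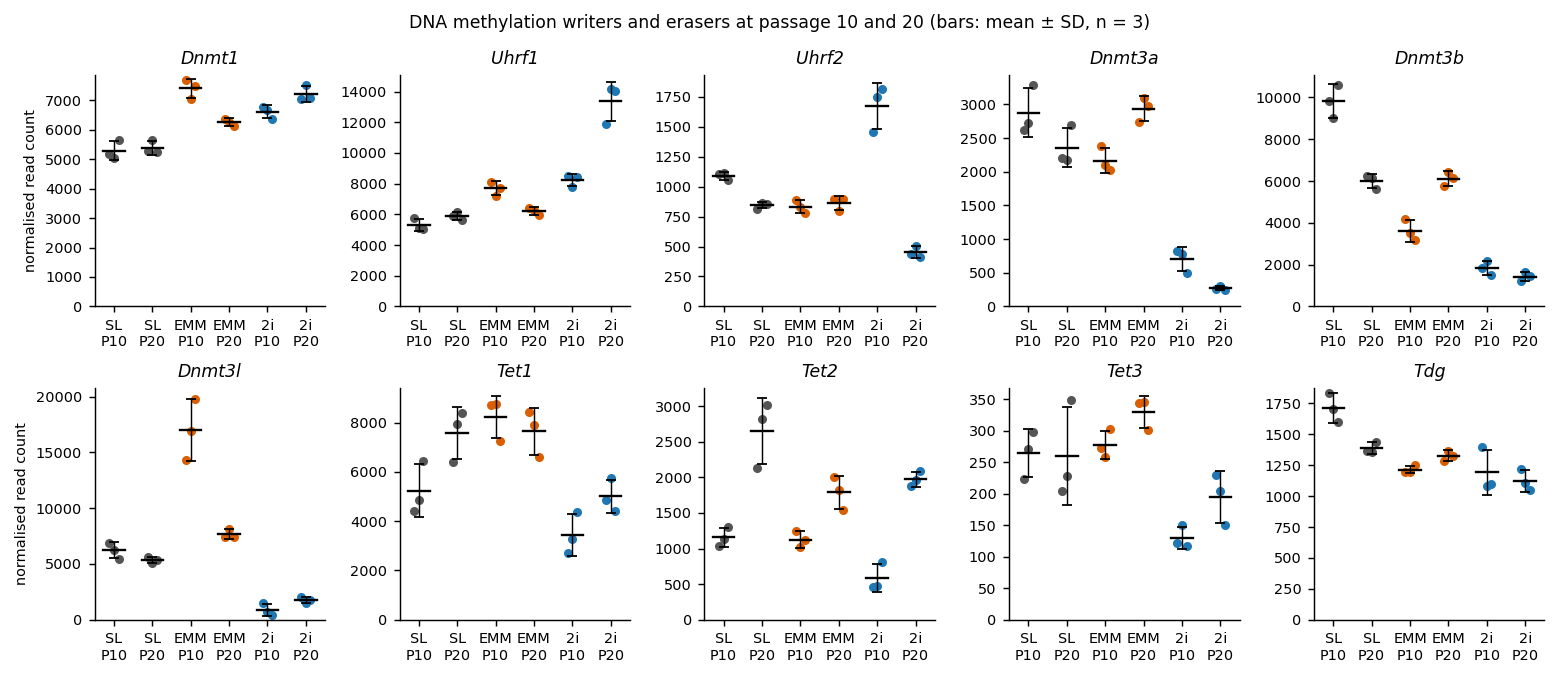
Normalised read counts of the 10 genes in the 18 passage libraries, by medium and passage (SL, Serum/LIF; 2i, 2i/LIF); points are libraries and bars mean ± SD (n = 3). Dnmt3l in P10 EMM, Uhrf1 in P20 2i/LIF and Dnmt3a and Dnmt3b in both 2i/LIF groups stand apart from the other groups of the same gene.

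Dnmt3l showed the widest range of the 10 genes. Its libraries had 6901, 6275 and 5474 normalised counts in P10 Serum/LIF, 14299, 16874 and 19813 in P10 EMM, and 1455, 713 and 402 in P10 2i/LIF. The 3 media did not overlap. In EMM it was higher than in Serum/LIF by 1.45 on the log2 scale (SE 0.26, edgeR adjusted p = 0.000197) and higher than in 2i/LIF by 4.33 (SE 0.27, adjusted p = 1.26e-09), a 20.1-fold difference. That difference rested on single 2i/LIF libraries for its size, at 4.95 without P10 2i/LIF replicate 1 and 3.97 without replicate 3. At P10 2i/LIF was below Serum/LIF by 2.88 (−2.88, adjusted p = 9.96e-08), or −3.50 and −2.52 without the same libraries. At P20 the libraries had 5664, 5106 and 5365 in Serum/LIF, 7406, 8156 and 7419.8 in EMM, and 2037, 1488 and 1731 in 2i/LIF. The P20 media did not overlap either, but the difference between EMM and Serum/LIF was 0.51 (SE 0.26, adjusted p = 0.136), and it was called when only those 2 groups were fitted (0.50, adjusted p = 2.78e-05) and without the filter on low counts (0.52, adjusted p = 7.03e-07). Against 2i/LIF the P20 difference was 2.14 (SE 0.27, adjusted p = 2.55e-06). Aire, which shares exon bases with Dnmt3l, had 495 to 1653 counts in P10 EMM and 70 to 100 in P10 2i/LIF, far fewer than Dnmt3l in the EMM libraries, and these libraries were made with a kit that keeps strand.

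Dnmt3b was lower in EMM than in Serum/LIF at P10 and not at P20. It had 9838, 9010.3 and 10620.0 normalised counts in P10 Serum/LIF, 4203, 3515 and 3157 in P10 EMM, and 1818, 2158 and 1522 in P10 2i/LIF. Each medium stood apart, and the log2 fold change of EMM against Serum/LIF was −1.44 (SE 0.12, edgeR adjusted p = 3.92e-08), close in size to the −1.47 of 24 h in EMM, a comparison from the other experiment. At P20 the libraries had 6235, 6161 and 5639 in Serum/LIF and 5746, 6439.7 and 6157 in EMM, which overlapped (0.02, SE 0.12, adjusted p = 0.9). The direction of that small P20 difference turned under library totals (−0.067) and with genes of at least 10 counts in every library (−0.024). The difference between the 2 passages was itself called (1.46, SE 0.17, adjusted p = 8.11e-06). Dnmt3b in 2i/LIF stayed lowest at P20, with 1194, 1623 and 1431 normalised counts, 2.10 below EMM on the log2 scale (SE 0.13, adjusted p = 1.55e-10).

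Dnmt3a was not called between EMM and Serum/LIF at either passage in the fit of all groups, although it had been among the strongest falls of the 10 genes in the first 24 h. Its libraries had 2615, 2717 and 3291 normalised counts in P10 Serum/LIF and 2376, 2093 and 2023 in P10 EMM, a difference of −0.41 (SE 0.14, edgeR adjusted p = 0.0254). DESeq2 called it (−0.44, adjusted p = 0.00962), as did edgeR with library totals (−0.51, adjusted p = 0.00884), with only the 2 groups, without a filter, or with a minimum of 10 counts per library (−0.48 to −0.42, adjusted p from 1.19e-05 to 0.00894). At P20 they had 2205, 2174 and 2699 in Serum/LIF and 2733, 3091 and 2982 in EMM, where the difference was 0.32 (SE 0.14, adjusted p = 0.0875), and was called without a filter (adjusted p = 0.00685) or with only the 2 groups (adjusted p = 0.00761). The contrast with 2i/LIF was larger and grew with passage. Dnmt3a had 827, 771 and 495 in P10 2i/LIF and 261, 298 and 239 in P20 2i/LIF, so EMM was higher by 1.65 (SE 0.15, adjusted p = 4.48e-08) and then 3.46 (SE 0.16, adjusted p = 5.23e-12), which is 3.14-fold and 11-fold. The change between passages, 1.81 (SE 0.22, adjusted p = 4.54e-06), was called too. Without the shallowest 2i/LIF library the P20 difference was 3.44 (adjusted p = 6.17e-11) for Dnmt3a, 2.00 (adjusted p = 7.84e-10) for Dnmt3b and 2.25 (adjusted p = 8.62e-06) for Dnmt3l.

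**Figure D3:**
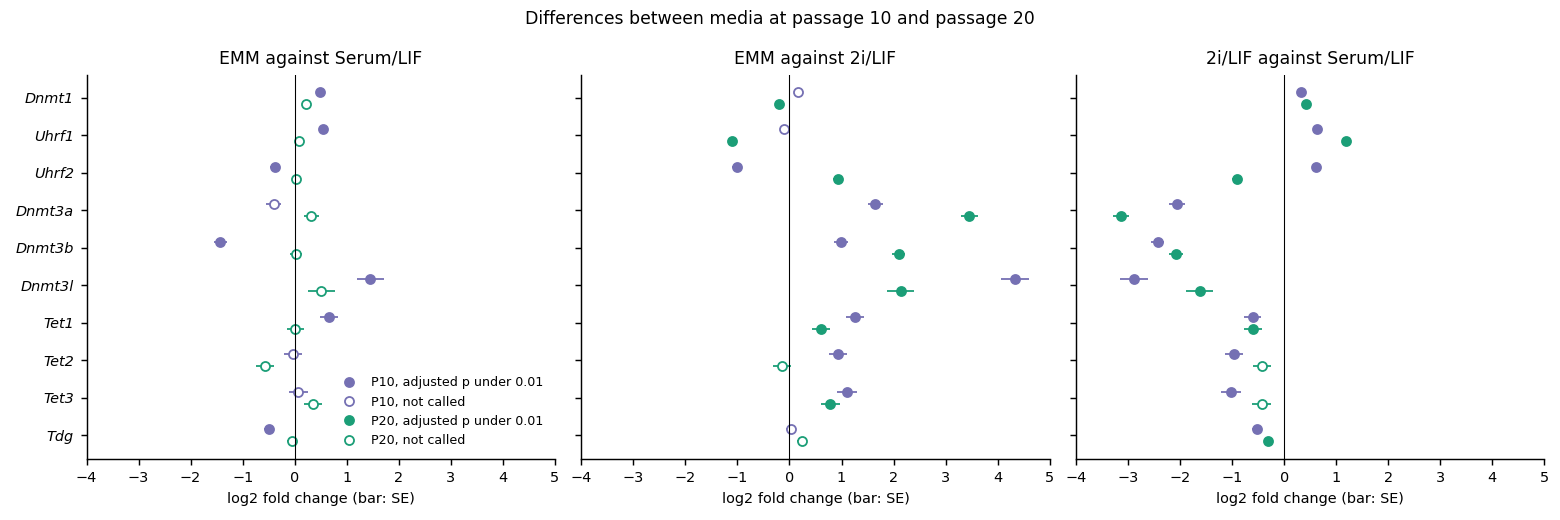
Log2 fold changes (x axis, bars are SE) of the 10 genes between media at P10 (purple) and P20 (green) in 3 contrasts; filled points have an edgeR adjusted p under 0.01. In EMM against Serum/LIF 7 points are filled at P10 and 0 at P20, and Uhrf2 changes sides of 0 between passages in both contrasts with 2i/LIF.

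Dnmt1 and Uhrf1 were higher in EMM and in 2i/LIF than in Serum/LIF at P10. Dnmt1 had 5180.0, 5034 and 5651 normalised counts in Serum/LIF, 7693, 7042 and 7488 in EMM, and 6781, 6685 and 6359.7 in 2i/LIF at P10. It was higher in EMM than in Serum/LIF by 0.49 on the log2 scale (SE 0.06, edgeR adjusted p = 5.01e-06) and in 2i/LIF by 0.32 (SE 0.06, adjusted p = 0.000254). The call for 2i/LIF was lost when only those 2 groups were fitted (0.28, adjusted p = 0.0103) or without a filter on low counts (0.26, adjusted p = 0.0216). Between EMM and 2i/LIF the P10 libraries did not overlap, and the difference was 0.17 (SE 0.06, adjusted p = 0.0337 in edgeR and 0.00861 in DESeq2). At P20 Dnmt1 had 5265, 5664 and 5248 in Serum/LIF, 6383, 6277 and 6142 in EMM and 7053, 7538 and 7070.1 in 2i/LIF, with no overlap. The P20 difference between EMM and Serum/LIF was 0.22 (SE 0.06, adjusted p = 0.0113 in edgeR and 0.00352 in DESeq2), and 2i/LIF was above Serum/LIF by 0.42 (SE 0.06, adjusted p = 1.88e-05). Between EMM and 2i/LIF the P20 difference was −0.20 (SE 0.06, adjusted p = 0.0096). It was not called without 2i/LIF replicate 2 or 3 or any EMM replicate (adjusted p from 0.0144 to 0.047), nor with replicate number as a blocking term (adjusted p = 0.0159), library totals (0.0338), no filter (0.114), at least 10 counts in every library (0.0249) or only the 2 groups (0.0235), and the count of 8 genes called in this comparison was 5 without 2i/LIF replicate 3.

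Uhrf1 followed Dnmt1 at P10, with 5751, 5125 and 5039 normalised counts in Serum/LIF, 8118, 7221 and 7743 in EMM, and 8499.5, 7797 and 8454 in 2i/LIF. EMM was above Serum/LIF by 0.54 (SE 0.08, edgeR adjusted p = 1.84e-05) and 2i/LIF by 0.64 (SE 0.08, adjusted p = 1.43e-06). At P20 the 2i/LIF libraries rose to 11891, 14150.1 and 14032, while EMM had 6441, 6255 and 5947 and Serum/LIF 5906, 6129 and 5611. EMM and Serum/LIF then overlapped (0.08, SE 0.08, adjusted p = 0.457; −0.012 with library totals), and EMM was below 2i/LIF by 1.10 on the log2 scale (−1.10, SE 0.08, adjusted p = 1.09e-09). The S phase list, which holds neither gene, summed to 5404 to 5655 CPM in the P20 2i/LIF libraries, to 3861 to 3975 in those of P20 EMM and to 3874 to 4443 in P10 2i/LIF. In P20 EMM against P20 2i/LIF 17 of its 20 genes were lower and 1 higher, against 22.9% and 25.7% of all genes. The part of this shift in the Uhrf1 values was not tested.

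Uhrf2 went the opposite way from Uhrf1 in 2i/LIF. It had 1457, 1749 and 1816 normalised counts in P10 2i/LIF, above all 15 other passage libraries, and 439, 508 and 409 in P20 2i/LIF, below all others. That fall of 1.88 on the log2 scale (log2 fold change −1.88, SE 0.10, edgeR adjusted p = 3.28e-10) exceeded in size the P20 to P10 change of 93.4% of all genes tested in 2i/LIF. In P10 EMM it had 891, 828 and 781, and in P10 Serum/LIF 1104, 1111 and 1055, a difference of −0.38 (SE 0.09, adjusted p = 0.00241). Leaving out P10 EMM replicate 2 or 3, or P10 Serum/LIF replicate 1 or 2, took the adjusted p to between 0.0107 and 0.0156. At P20 Uhrf2 had 896, 798 and 897 in EMM and 817, 861 and 857 in Serum/LIF, which overlapped (0.03, SE 0.09, adjusted p = 0.828; −0.061 with library totals). EMM was thus below 2i/LIF at P10 (−1.0, SE 0.09, adjusted p = 5.58e-08) and above it at P20 (0.93, SE 0.10, adjusted p = 1.56e-07), and the difference between the passages was called (1.93, SE 0.13, adjusted p = 8.83e-09). Without the shallowest library the P20 difference was 0.90 (adjusted p = 9.96e-07).

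The Tet genes were lowest in 2i/LIF at P10. Tet1 had 2689, 3263 and 4358 normalised counts in P10 2i/LIF, 4422, 4845 and 6455 in P10 Serum/LIF and 8709, 8755 and 7259 in P10 EMM. These did not overlap, and EMM was higher than 2i/LIF by 1.26 (SE 0.17, edgeR adjusted p = 5.19e-06) and than Serum/LIF by 0.65 (SE 0.17, adjusted p = 0.00333). The latter was not called under library totals (0.55, adjusted p = 0.0116), nor without P10 EMM replicate 1 or 2 or P10 Serum/LIF replicate 1 or 2 (adjusted p from 0.0141 to 0.02). At P20 Tet1 had 8422, 7922 and 6588 in EMM, 6386, 7947 and 8408 in Serum/LIF and 4868, 5749.9 and 4426 in 2i/LIF. EMM and Serum/LIF overlapped (0.01, SE 0.17, adjusted p = 0.966), and the sign turned under 5 alternatives. The P20 difference of EMM from 2i/LIF, 0.61 (SE 0.17, adjusted p = 0.00434), was 0.58 without the shallowest library (adjusted p = 0.0134) and 0.45 when each chromosome was scaled on its own (adjusted p = 0.0261), and was also not called without 2i/LIF replicate 3 (0.52, adjusted p = 0.0253) or EMM replicate 1 (0.54, adjusted p = 0.0221) or 2 (0.58, adjusted p = 0.0155). Tet1 in 2i/LIF was lower than in Serum/LIF by −0.61 at P10 (SE 0.17, adjusted p = 0.00432) and −0.60 at P20 (SE 0.17, adjusted p = 0.00554). The first was not called without P10 2i/LIF replicate 1 or 2 or P10 Serum/LIF replicate 3 (−0.57 to −0.42, adjusted p 0.0196 to 0.0412). The second was not called without the shallowest library, 2i/LIF replicate 3 or Serum/LIF replicate 2 or 3 (−0.57 to −0.51, adjusted p 0.016 to 0.0307) or with chromosome scaling (−0.48, adjusted p = 0.0185).

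Tet2 rose from P10 to P20 in every medium. It had 1039, 1132 and 1301 normalised counts in P10 Serum/LIF against 2130.2, 2818 and 3017 at P20, 1244, 1019 and 1116 in P10 EMM against 2006, 1819.6 and 1536, and 458, 476 and 816 in P10 2i/LIF against 1873, 1958 and 2083. No P20 library was below a P10 library of its medium. The log2 fold change of P20 against P10 was 1.20 (SE 0.17, edgeR adjusted p = 0.000212) in Serum/LIF, 0.66 (SE 0.17, adjusted p = 0.00605) in EMM and 1.74 (SE 0.18, adjusted p = 9.66e-07) in 2i/LIF. In Serum/LIF, Tet2 changed more than 94.5% of all genes tested. The call in EMM was lost without EMM replicate 2 or 3 at P10, or 1 or 2 at P20 (adjusted p from 0.0196 to 0.0333). At P10, EMM was above 2i/LIF by 0.93 (SE 0.18, adjusted p = 0.000264), and at P20 the difference was −0.14 (SE 0.17, adjusted p = 0.488), with the change between passages called (−1.07, SE 0.25, adjusted p = 0.0019). In P20 EMM it was lower than in P20 Serum/LIF by −0.57 (SE 0.17, adjusted p = 0.0125 in edgeR). DESeq2 called it (−0.59, adjusted p = 0.00267), and so did edgeR under 6 alternatives: DESeq2's size factors (adjusted p = 0.00899), library totals (0.00511), no filter (2.66e-07), at least 10 counts in every library (0.00569), chromosome scaling (0.00588) and only the 2 groups (0.00204).

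Tet3 had 122, 149.6 and 117 normalised counts in P10 2i/LIF, 272, 259 and 302 in P10 EMM and 223, 271 and 298 in P10 Serum/LIF. It was higher in EMM than in 2i/LIF by 1.10 (SE 0.19, edgeR adjusted p = 0.000105) at P10 and by 0.78 (SE 0.18, adjusted p = 0.00119) at P20, and was not called between EMM and Serum/LIF (0.07, adjusted p = 0.776, and 0.35, adjusted p = 0.126). At P20 the call against 2i/LIF was lost without 2i/LIF replicate 3 (0.62, adjusted p = 0.011). Tet3 lies on chromosome 6, whose median gene was 0.33 higher on the log2 scale in P20 2i/LIF than in P20 Serum/LIF. Against Serum/LIF, Tet3 in P20 2i/LIF had a difference of −0.43 (SE 0.19, adjusted p = 0.0568), and with each chromosome scaled on its own it was −0.73 (adjusted p = 0.00287). Tdg had 1835, 1706 and 1599 in P10 Serum/LIF, and 1197, 1195 and 1248 in P10 EMM, at −0.50 on the log2 scale (SE 0.09, adjusted p = 0.000167). In P10 2i/LIF it had 1399, 1079 and 1098, which was −0.53 against Serum/LIF (SE 0.09, adjusted p = 5.8e-05) and overlapped EMM (0.03, adjusted p = 0.813). At P20, Tdg had 1281, 1368 and 1328 in EMM and 1362, 1354 and 1442 in Serum/LIF, at −0.06 on the log2 scale (SE 0.09, adjusted p = 0.612). In P20 2i/LIF against Serum/LIF it was −0.31 (SE 0.09, adjusted p = 0.00773), a call lost without any of 2i/LIF replicates 2 and 3 or Serum/LIF replicates 1, 2 and 3 (adjusted p from 0.0161 to 0.0411), when only those 2 groups were fitted (−0.32, adjusted p = 0.0144) and with chromosome scaling (−0.19, adjusted p = 0.0825).

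Within each medium, P20 was also compared with P10. In Serum/LIF, 2 of the 10 genes were called between P20 and P10 (1 higher, 1 lower; 6.01% of all genes), Tet2 and Dnmt3b, the latter by −0.71 on the log2 scale (SE 0.12, edgeR adjusted p = 0.00102). DESeq2 called 4, adding Uhrf2 (−0.38, adjusted p = 0.00108) and Tdg (−0.32, adjusted p = 0.00728). In EMM, 5 were called (2 higher, 3 lower; 25.3%). Dnmt3b rose by 0.75 (SE 0.12, adjusted p = 0.00015), Dnmt3l changed by −1.15 (SE 0.26, adjusted p = 0.00238), and Uhrf1 and Dnmt1 by −0.31 (SE 0.08, adjusted p = 0.00484) and −0.24 (SE 0.06, adjusted p = 0.00596). The EMM count rests on single libraries: it was between 1 and 4 when a library was left out, and 3 with library totals, where Uhrf1 (adjusted p = 0.0363) and Dnmt1 (adjusted p = 0.0665) were not called. Dnmt3l lost its call without P10 EMM replicate 3 (−1.04, adjusted p = 0.0125) or P20 EMM replicate 1 (−1.12, adjusted p = 0.0123) or 3 (−1.12, adjusted p = 0.012). Dnmt1 and Uhrf1 each lost theirs without P10 EMM replicate 1 or 3 or any P20 EMM replicate (adjusted p from 0.0115 to 0.0298). Without a filter on low counts, too, neither was called (adjusted p = 0.143 for Dnmt1 and 0.0269 for Uhrf1), and Dnmt1 was not called with at least 10 counts required in every library (adjusted p = 0.0109) or with replicate number as a blocking term (adjusted p = 0.0106). Dnmt3a, whose EMM libraries did not overlap between passages (0.44, adjusted p = 0.0218), was called with only the 2 groups (adjusted p = 0.00116) and without the filter (adjusted p = 1.49e-05). In 2i/LIF, 5 were called (3 higher, 2 lower; 28.3%): Uhrf2 and Tet2 as above, Dnmt3a (−1.37, SE 0.16, adjusted p = 4.21e-06), Uhrf1 (0.70, SE 0.08, adjusted p = 2.33e-06) and Dnmt3l (1.05, SE 0.28, adjusted p = 0.00579). Dnmt3l there was 0.93 without the shallowest library (adjusted p = 0.0212), and 0.94, 0.69 and 1.06 without P10 2i/LIF replicate 2 or 3 or P20 replicate 3, none of them called. It was also not called when only those 2 groups were fitted (1.05, adjusted p = 0.0717), and was 1.67 without P10 2i/LIF replicate 1 (adjusted p = 3.71e-06). Without P10 2i/LIF replicate 3, Dnmt3b (−0.48, adjusted p = 0.00807) and Tet1 (0.75, adjusted p = 0.0023) were called between passages in 2i/LIF, as Tet1 was by DESeq2 (0.55, adjusted p = 0.0036), and without P20 2i/LIF replicate 3 Tet3 was (0.74, adjusted p = 0.0083).

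At P20 edgeR called 0 of the 10 genes between EMM and Serum/LIF, against 26% of all genes. The libraries of Dnmt1, Dnmt3a, Dnmt3l and Tet2 did not overlap, but the share of all genes without overlap was not computed. At an unadjusted p under 0.05 there were 3 (Dnmt1, Dnmt3a and Tet2), where 39% of all genes passed 0.05 even after adjustment. DESeq2 called 2 (Dnmt1 and Tet2), and the other settings called between 0 and 4. Dnmt1, for example, was called by edgeR with only the 2 groups in the fit (0.21, adjusted p = 0.00473) and with chromosome scaling (0.24, adjusted p = 0.00842). Leaving out P20 Serum/LIF replicate 1 brought a call for Tet2 (−0.71, adjusted p = 0.00462), and leaving out replicate 3 a call for Tet3 (0.61, adjusted p = 0.00936). The change of the EMM effect from P10 to P20 was tested directly and was called for Dnmt3b and Uhrf1 (2 of 10, 1 higher and 1 lower; 14.7% of all genes). For Uhrf1 it was −0.46 (SE 0.11, adjusted p = 0.00521). That call was lost without P10 EMM replicate 1, P10 Serum/LIF replicate 2 or 3, P20 EMM replicate 2 or 3 or P20 Serum/LIF replicate 2 (adjusted p from 0.0137 to 0.0195), and without a filter on low counts (−0.38, adjusted p = 0.0343). Tested in the same way, the EMM effect against 2i/LIF changed for 7 of the 10 (3 higher, 4 lower; 32.3% of all genes), of which Dnmt1 (−0.37) was not called with library totals (adjusted p = 0.0224) or without a filter (adjusted p = 0.0387), and the 2i/LIF effect against Serum/LIF for 3, Uhrf1 (0.55, SE 0.11, adjusted p = 0.00122), Dnmt3a (−1.08, SE 0.22, adjusted p = 0.0011) and Uhrf2 (−1.52, SE 0.13, adjusted p = 6.44e-07), against 20% of all genes. For EMM against Serum/LIF the change between passages was not called for the other 8 genes in the fit of all groups, though 1 or more alternatives called Dnmt1, Dnmt3a, Dnmt3l, Tdg, Tet1 and Uhrf2. Among the 8 were Dnmt3a (0.72, SE 0.20, adjusted p = 0.0133; 0.83 and 0.00889 without P20 Serum/LIF replicate 3), Dnmt3l (−0.94, SE 0.37, adjusted p = 0.0724) and Tet1 (−0.64, SE 0.24, adjusted p = 0.0531).

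The balance between members within a library does not depend on scaling between libraries. It does depend on the length used, the union of annotated exons, which ran from 2.988 kb for Dnmt3l to 16.87 kb for Tet2. Which isoforms were expressed was not measured. Per kilobase of exon, Dnmt3l was the most abundant of the 10 transcripts in every Serum/LIF and EMM group, while Uhrf1 was the most abundant in both 2i/LIF groups, and Tet3 the least abundant everywhere. In P10 EMM the mean level of Dnmt3l was 364 CPM per kilobase, and the next were Uhrf1 with 116, Dnmt1 with 64.3 and Dnmt3b with 45.5. In P10 Serum/LIF the order was Dnmt3l with 133, Dnmt3b with 123, Uhrf1 with 79.8 and Dnmt1 with 45.9, where Dnmt3l and Dnmt3b overlapped. In P20 2i/LIF the order was Uhrf1 with 201, Dnmt1 with 62.7, Dnmt3l with 37.6, Tet1 with 20.8 and Dnmt3b with 17.8, where Tet1 and Dnmt3b overlapped.

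The ratio of Dnmt3l to Dnmt3b per kilobase was 8.25 ± 2.46 (SD, n = 3) in P10 EMM, against 1.09 ± 0.181 in P10 Serum/LIF and 0.795 ± 0.500 in P10 2i/LIF. At P20 it was 2.14 ± 0.0741 in EMM, 1.53 ± 0.107 in Serum/LIF and 2.18 ± 0.682 in 2i/LIF. The P10 EMM libraries had 5.81, 8.20 and 10.7, above all other libraries of the passage experiment. The ratio of Uhrf1 to Uhrf2 was 60.0 ± 8.02 in P20 2i/LIF, where the libraries ranged from 54.6 to 69.2, against 10.1 ± 1.50 in P10 2i/LIF. In the time course it went from 16.6 ± 0.480 in Serum/LIF to 30.9 ± 0.448 at 3 h, and was 23.4 ± 0.334 at 24 h. Tet2 made up 10.9% ± 1.31 of the summed Tet level in P10 EMM and 17.1% ± 0.279 in P20 EMM, and 12.9% ± 1.49 and 26.0% ± 3.20 in 2i/LIF at P10 and P20.

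**Figure D4:**
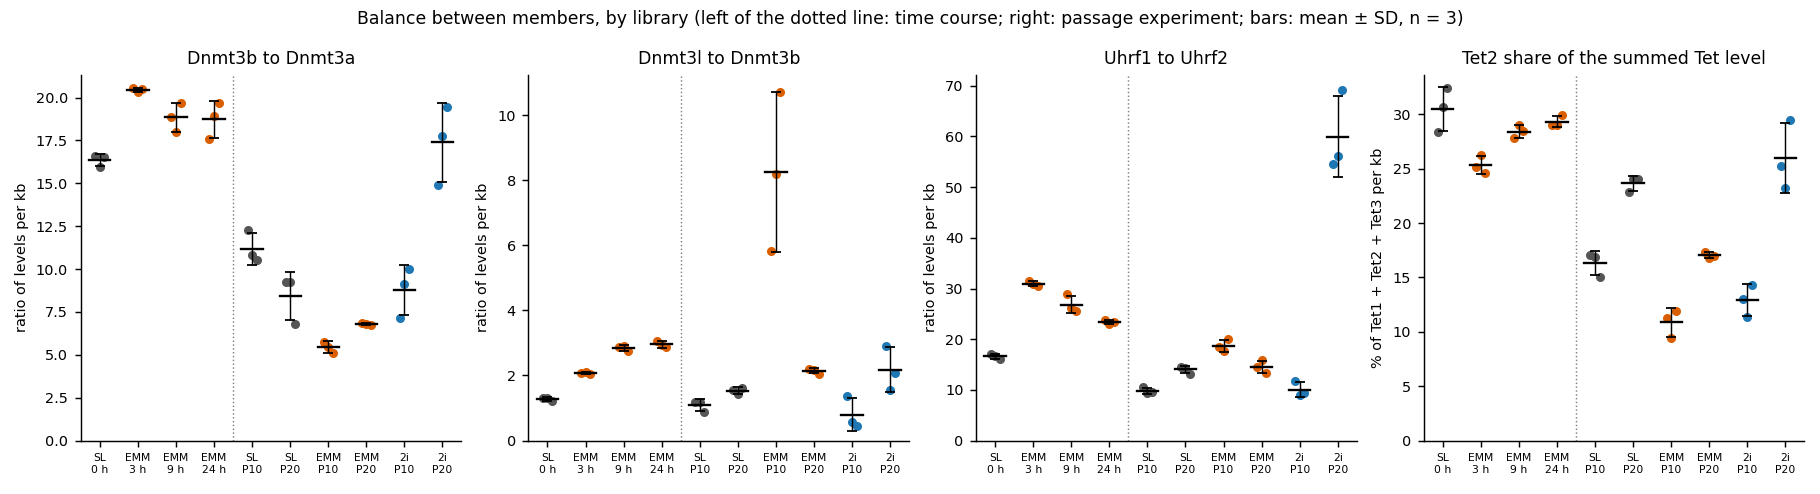
Ratios of levels per kilobase of exon (first 3 panels) and the Tet2 share of the summed Tet level (%), by library; time-course groups stand left of the dotted line and passage groups right of it, with bars for mean ± SD (n = 3). P10 EMM stands out for Dnmt3l to Dnmt3b, at 5.81 to 10.7, and P20 2i/LIF for Uhrf1 to Uhrf2, at 54.6 to 69.2.

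Dnmt3a and Dnmt3b varied together across libraries, with Pearson's r of 0.98 over the 12 time-course libraries and 0.92 over the 18 passage libraries, on log2 CPM. Dnmt3l and Dnmt3b had 0.74 and 0.65. Over the passage libraries, Uhrf1 ran against Dnmt3a (−0.92) and Dnmt3b (−0.90), but over the time course these were −0.26 and −0.20. These values describe libraries that fall into groups and share scaling. Among 11002 other well-covered genes, those closest in pattern over both experiments were Emb and Spop for Dnmt3a (mean r 0.98 and 0.97), Pou3f1 and Emb for Dnmt3b (0.98 and 0.97), and Ctbp2 and L1td1 for Dnmt3l (0.96 and 0.95). For Uhrf1 they were Akap1 and Eef2k (both 0.92), for Uhrf2 Klhl5 and Serinc5 (both 0.92), for Tdg Epha1 and Rps6ka6 (both 0.90), and for Dnmt1 Pcnt and Top3a (0.83 and 0.78). For the Tet genes the closest were weaker, with Shisa7 and 4932438A13Rik for Tet1 (both 0.79), Yae1d1 for Tet2 (0.79) and Trim71 and Micu2 for Tet3 (0.80 and 0.71).

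Regulators that act on these enzymes were measured in the same libraries. Dppa3, whose product (STELLA) keeps UHRF1 off chromatin in oocytes, fell with time in EMM: it had 501, 528 and 502 normalised counts in Serum/LIF, 409, 388 and 424 at 3 h, 190, 206 and 226 at 9 h and 126, 135 and 118 at 24 h. That was −2.02 on the log2 scale at 24 h (SE 0.08, edgeR adjusted p = 5.26e-11). In P10 EMM it had only 5.63, 7.79 and 9.16 normalised counts, against 644, 637 and 802 in Serum/LIF and 559, 553 and 1281 in 2i/LIF, which was −6.62 against Serum/LIF on the log2 scale (SE 0.92, adjusted p = 6.11e-08). In P20 EMM it had 37.2, 33.6 and 40.6, and was −3.46 against Serum/LIF (SE 0.43, adjusted p = 5.22e-06). Prdm14, a repressor of Dnmt3b and Dnmt3l in naive cells, was lower at 3 h of EMM (−0.82, SE 0.08, adjusted p = 9.81e-07) and was back at −0.03 (adjusted p = 0.777) at 9 h. It was higher in 2i/LIF than in Serum/LIF by 1.82 (SE 0.13, adjusted p = 1.26e-09) at P10 and 0.97 (SE 0.12, adjusted p = 2.98e-06) at P20. In EMM it was close to Serum/LIF at P10 (−0.24, adjusted p = 0.181) and below it at P20 (−1.04, SE 0.13, adjusted p = 6.82e-06).

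**Figure D5:**
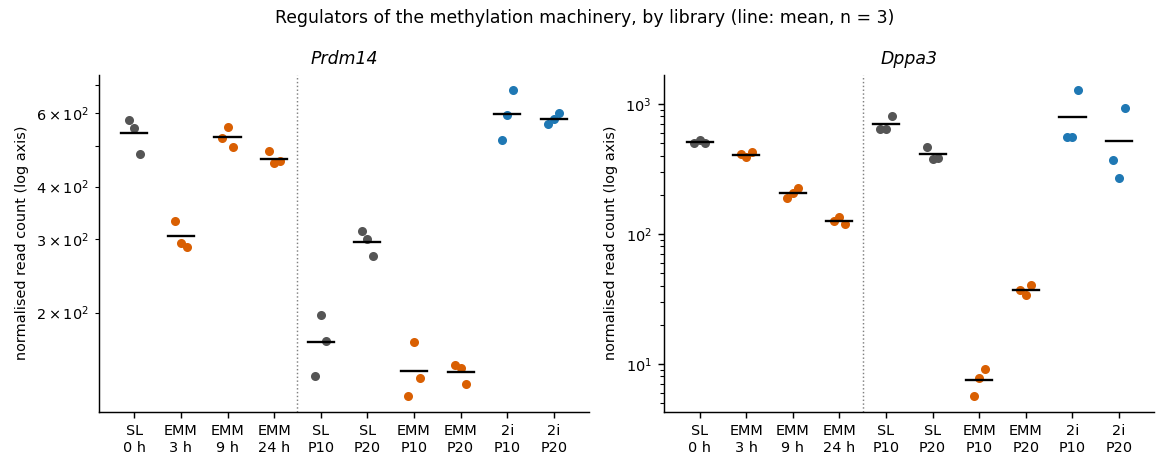
Normalised read counts (log axis) of Prdm14 and Dppa3 by library, time course left of the dotted line and passage experiment right; lines are means (n = 3). Dppa3 falls with time in EMM and is lowest in P10 EMM, and Prdm14 is highest among the passage groups in 2i/LIF.

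Gene lists around the enzymes were counted against Serum/LIF in the same fits. As background, 21.8% of the genes tested rose and 22.2% fell at 24 h of EMM, 18.7% and 18.7% did so in P10 EMM, and 26.4% and 25.6% in P10 2i/LIF, with medians over these genes of 0.0001, 0.012 and 0.0185 on the log2 scale. In the wider list of 17 genes that target or regulate the enzymes, 3 of 17 tested were higher and 6 lower at 24 h of EMM (median −0.09). At P10 the counts were 7 higher and 3 lower of 16 in EMM (median 0.22) and 6 higher and 5 lower in 2i/LIF (median 0.15), each against Serum/LIF. Setdb1, which deposits repressive histone methylation, had the largest rise of the list at 24 h (0.31, SE 0.04, edgeR adjusted p = 6.52e-06). Zfp57, which protects methylation at imprinted regions, had the largest rise in P10 EMM (1.33, SE 0.10, adjusted p = 7.6e-09), and Ehmt2, a histone H3 lysine methyltransferase, the largest fall in 2i/LIF (−0.61, SE 0.09, adjusted p = 6.69e-06). Of 8 proteins that bind methylated DNA or derive from that family, 2 were higher and 0 lower at 24 h, 2 higher and 1 lower in P10 EMM, and 5 higher and 1 lower in P10 2i/LIF. Mbd2 led at 24 h (0.41, SE 0.10, adjusted p = 0.00346), and Zbtb38 rose most in both P10 EMM (1.16, SE 0.12, adjusted p = 3.7e-07) and P10 2i/LIF (1.92, SE 0.12, adjusted p = 2.4e-10). Zbtb33 was lower in P10 EMM (−0.77, SE 0.14, adjusted p = 0.000148) and Mbd3 in P10 2i/LIF (−0.59, SE 0.10, adjusted p = 8.38e-05).

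Another list held genes that make and spend the methyl donor S-adenosylmethionine. Of 13 tested, 0 were higher and 7 lower at 24 h of EMM (median −0.16), against 21.8% and 22.2% of all genes, led by Gnmt, which uses up the donor (−1.74, SE 0.22, edgeR adjusted p = 3.57e-06). Of 14 tested at P10, 6 were higher and 3 lower in EMM and 7 higher and 2 lower in 2i/LIF. Gnmt had the largest fall in both (−2.36, SE 0.46, adjusted p = 0.000246, and −2.82, SE 0.48, adjusted p = 3.46e-05), Cbs, of homocysteine removal, rose most in EMM (0.74, SE 0.12, adjusted p = 3.35e-05), and Bhmt, which remethylates homocysteine, rose most in 2i/LIF (6.41, SE 0.82, adjusted p = 4.99e-08). Of 14 genes of base excision repair and partners of the Tet enzymes, 4 were higher and 2 lower at 24 h. At P10, 5 were higher and 3 lower in EMM and 5 higher and 5 lower in 2i/LIF. Idh2, which makes 2-oxoglutarate, the cosubstrate of the Tet enzymes, from isocitrate, rose most in all 3: by 1.32 (SE 0.04, adjusted p = 1.17e-12) at 24 h, 1.87 (SE 0.07, adjusted p = 1.04e-12) in P10 EMM and 1.25 (SE 0.07, adjusted p = 4.76e-11) in P10 2i/LIF. The largest falls were Lig3 at 24 h (−0.33, SE 0.05, adjusted p = 2.83e-05), Gadd45g in P10 EMM (−2.06, SE 0.29, adjusted p = 1.17e-05) and Gadd45a in P10 2i/LIF (−2.30, SE 0.16, adjusted p = 1.05e-09).

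A further list held germline genes whose promoters are known to be silenced by methylation in somatic cells. Of 17 tested, 0 were higher and 12 lower at 24 h of EMM (median −0.73, against 21.8% higher and 22.2% lower over all genes), and of 18 tested in P10 EMM 1 was higher and 8 lower (median −0.94, against 18.7% and 18.7%). In P10 2i/LIF 4 were higher and 10 lower (median −1.50), although the summed level of the list was highest in 2i/LIF, at 213 to 260 CPM in P10 and 249 to 342 in P20, against 105 to 112 in P10 EMM and 154 to 179 in P10 Serum/LIF. Tdrkh fell most in both P10 comparisons (−3.04, SE 0.26, edgeR adjusted p = 2.72e-08, and −4.81, SE 0.36, adjusted p = 2.2e-10), and Stk31 was the gene that rose in P10 EMM (0.97, SE 0.21, adjusted p = 0.000836). Tex101, the largest fall at 24 h, had 7, 14 and 17 counts in Serum/LIF and 1, 2 and 0 at 24 h. Asz1, the largest rise in P10 2i/LIF, had 4, 2 and 5 counts there and 0, 0 and 1 in Serum/LIF, too few for a fold change.

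The list of formative pluripotency, the state in which Dnmt3a and Dnmt3b are known to be high, had 8 of 12 genes lower and 1 higher at 24 h of EMM (median −0.89, against 22.2% lower and 21.8% higher over all genes). In P10 EMM 6 were lower and 3 higher (median −0.99), and in P10 2i/LIF 9 were lower and 2 higher (median −1.18). Pou3f1 fell most at P10, by −3.25 in EMM (SE 0.13, edgeR adjusted p = 1.24e-12) and −7.13 in 2i/LIF (SE 0.28, adjusted p = 4.61e-15), and at P20 the EMM list counted 5 higher and 1 lower against Serum/LIF (median 0.51), where 13.6% of all genes were higher and 12.5% lower. At 24 h the largest fall was Lef1 (−2.32, SE 0.18, adjusted p = 2.05e-08), which was also the largest rise in P10 2i/LIF (0.86, SE 0.15, adjusted p = 5.33e-05), and the largest rise was Dusp6 (0.63, SE 0.04, adjusted p = 3.9e-09). Foxd3 rose most in P10 EMM (1.52, SE 0.16, adjusted p = 3.44e-07). In the S phase list, Cdc45 rose and Ccne1 fell most at 24 h (0.22, SE 0.04, adjusted p = 0.000178, and −0.60, SE 0.03, adjusted p = 2.24e-09). In P10 EMM 4 of its 20 genes were higher and 0 lower, with Gins2 first (0.70, SE 0.13, adjusted p = 0.000238). In P10 2i/LIF 2 were higher and 8 lower, with Tyms (0.41, SE 0.09, adjusted p = 0.000502) and Ccne1 (−1.72, SE 0.09, adjusted p = 1.95e-11) at the ends.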

How the data were processed

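RNA was sequenced from 12 time-course and 18 passage libraries of E14tg2a mESCs. The authors deposited whole-number counts per gene for the time course. For the passage experiment they deposited estimated counts, of which 9.982% were not whole and which were rounded here. The submitters' processing notes name STAR and featureCounts (time course), STAR and Salmon (passages), DESeq2 and mm10, and the study's methods name HTSeq. Versions and the strand setting are not given in the sources used here. Kits were NEBNext Ultra 2 (time course) and NEBNext Ultra II Directional (passages), so levels were compared only within a table.

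Groups and replicate numbers came from the labels, and 0 columns of values were left unmapped. Each table was fitted once with all its groups by edgeR 4.0.16 in R 4.3.3 (quasi-likelihood, TMM scaling, filterByExpr), leaving 16049 and 16054 genes, and p-values were adjusted over all of them by Benjamini-Hochberg. The Wald test of DESeq2 1.42.0 and other settings served as alternatives. Scripts were tested on simulated data. Levels per kilobase used the union of annotated exons, and log2 CPM a prior count of 2. No replicate pair agreed within sampling noise (chi-square per degree of freedom of at least 2.09). Deviations from the group means correlated between same-numbered libraries of P10 and P20 2i/LIF (0.299, 0.134 and 0.224). These 3 values are not independent, since deviations within a group cancel, and replicate 1 stood apart from its replicates in both groups. No label gives a shared origin, so a pairing of these libraries is not settled here. The p-values set differences between groups against the spread between libraries within groups. That spread was estimated over all groups of a table, with 3 libraries in each.

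The 10 genes and the gene lists (methyl-CpG readers, targeting and regulators, methyl donor cycle, base excision and partners, methylation-silenced germline genes, S phase, formative pluripotency, and markers of other cell types) were chosen with earlier results of these data known. Named were all 10 genes, Prdm14 and Dppa3, the largest called rise and fall of each list in 3 comparisons, and for each gene the 2 genes of highest mean Pearson's r. For Tet2, 1 of these 2 is not reported here. Markers of primitive endoderm, neural cells and mesoderm were also counted: of 6, 4 and 4 listed genes, 3, 2 and 1 were higher and 0, 0 and 1 lower at 24 h of EMM, and 0, 1 and 1 were higher and 1, 1 and 2 lower in P10 EMM against Serum/LIF.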

Additional observations from a re-analysis of the deposited data

Results flagged for a closer look

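These values are differences between effects of the same contrast at 2 passages, or between 2 times in EMM, each past an edgeR adjusted p of 0.01. The effect of EMM against Serum/LIF changed from P10 to P20 by 1.46 for Dnmt3b and −0.46 for Uhrf1 on the log2 scale. The effect of EMM against 2i/LIF changed by −2.20 for Dnmt3l, −1.0 for Uhrf1, −0.37 for Dnmt1, 1.81 for Dnmt3a, 1.93 for Uhrf2, 1.11 for Dnmt3b and −1.07 for Tet2 (7 of 10 genes; 32.3% of all genes tested). Without P20 2i/LIF replicate 1, the shallowest library, the same 7 values were −2.10, −1.09, −0.40, 1.78, 1.90, 1.00 and −1.12, all called. The Dnmt1 value was not called with library totals as the only scaling (−0.29, adjusted p = 0.0224) or without a filter on low counts (−0.35, adjusted p = 0.0387), and Dnmt3l was −2.81 without P10 2i/LIF replicate 1. The effect of 2i/LIF against Serum/LIF changed by 0.55 for Uhrf1, −1.08 for Dnmt3a and −1.52 for Uhrf2 (3 of 10; 20% of all genes). Without P10 2i/LIF replicate 1, Dnmt3l was called as well (1.88, adjusted p = 2.22e-05), and without P10 2i/LIF replicate 3 so was Tet2 (0.88, adjusted p = 0.00332). Without the latter library Tet1 was also called for EMM against 2i/LIF (−0.86, adjusted p = 0.00514). Within EMM, the levels at 9 h differed from those at 3 h by −1.04 for Dnmt3b, −0.58 for Dnmt3l, −0.92 for Dnmt3a and 0.24 for Uhrf2.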

How the results depend on the processing

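Results called different kept their direction under all alternatives run; every reversal concerned a difference that was not called. With library totals as the only scaling, P20 EMM against Serum/LIF was −0.080 for Tet1, −0.012 for Uhrf1, −0.061 for Uhrf2 and −0.067 for Dnmt3b, P10 EMM against Serum/LIF −0.031 for Tet3, P10 EMM against 2i/LIF −0.028 for Tdg, P20 against P10 in Serum/LIF 0.042 for Tet3, and the change of the 2i/LIF effect −0.062 for Tet1. That scaling moved the median gene by over 0.1 only for P20 2i/LIF against Serum/LIF (−0.118). With at least 10 counts in every library, P20 EMM against Serum/LIF was −0.037 for Tet1, −0.018 for Uhrf2 and −0.024 for Dnmt3b, and P10 was −0.0072 for Tet3. With chromosome scaling it was −0.037 at P20 for Tet1, and 0.024 for Dnmt1 at 3 h, −0.041 for Tdg in P10 EMM against 2i/LIF and −0.016 for Dnmt1 between passages in Serum/LIF. Tet1 at P20 was −0.011 with DESeq2's size factors and by its Wald test.

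Leaving out a library left 1094 results as they were, took 63 under the threshold, brought 14 past it and reversed 29. The reversed values ranged for Tet3 from −0.19 to 0.036 at 3 h, −0.057 to 0.17 at 24 h, −0.12 to 0.015 between 3 h and 9 h, −0.027 to 0.17 in P10 EMM against Serum/LIF and −0.28 to 0.12 between passages in Serum/LIF. They ranged for Dnmt1 from −0.054 to 0.042 at 3 h and −0.0095 to 0.075 between passages in Serum/LIF, for Tdg from −0.046 to 0.029 at 3 h, −0.15 to 0.042 between passages in 2i/LIF and −0.037 to 0.16 in P10 EMM against 2i/LIF, and for Tet2 from −0.092 to 0.084 at 9 h and −0.12 to 0.065 in P10 EMM against Serum/LIF. Uhrf1 at 24 h ranged from −0.015 to 0.051, Uhrf2 between passages in EMM from −0.011 to 0.10, and in P20 EMM against Serum/LIF Tet1 from −0.10 to 0.11 and Dnmt3b from −0.019 to 0.07. Tet1 in the change of the 2i/LIF effect ranged from −0.17 to 0.22. Counts of genes called ranged from 0 to 1 for 24 h against 9 h and for P20 EMM against Serum/LIF, 5 to 7 for P20 EMM against 2i/LIF, 1 to 4 between passages in EMM and 1 to 3 for the change of the EMM effect against Serum/LIF. The shares of all genes called in these fits ran from 8.44% to 12.2%, 18.8% to 19.9%, 41.5% to 45.2%, 17% to 22.2% and 11% to 13.1%.

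With a log2 fold change above 1 also required, the counts (and shares of all genes) were 0 at 3 h (4.22%), 2 at 9 h (5.55%), 2 at 24 h (8.18%), 1 for 9 h against 3 h (1.75%), 2 and 4 for P10 EMM and 2i/LIF against Serum/LIF (17.1% and 26.4%), 4 for P20 EMM against 2i/LIF (25.3%), 4 for P20 2i/LIF against Serum/LIF (22.3%), 1 between passages in Serum/LIF (1.84%), 1 in EMM (8.54%), and 1 for the change of the EMM effect against Serum/LIF (8.4%). At an adjusted p under 0.05 they were 2 for 24 h against 9 h (23.7%), 2 for P20 EMM against Serum/LIF (39%), 5 and 8 between passages in Serum/LIF and 2i/LIF (15.1% and 41.4%), and 6 for that change (25.4%). Without a low-count filter they were 7 at 3 h (19.4%), 3 for P20 EMM against Serum/LIF (14.4%), 4 and 8 between passages in Serum/LIF and 2i/LIF (6.14% and 15.6%), and 5 and 5 for the change of the EMM and 2i/LIF effects against Serum/LIF (9.08% and 12.4%). The Wald test of DESeq2 gave 1, 2, 4 and 5 for 24 h against 9 h, P20 EMM against Serum/LIF, passages in Serum/LIF and the change of the EMM effect (14%, 30.2%, 10.7% and 18.6%). P20 EMM against Serum/LIF had 1 gene with DESeq2's size factors (26.4%), 1 with library totals (26.6%), 1 with at least 10 counts in every library (30.4%), 2 with chromosome scaling (26.2%) and 4 with only the groups compared (40.3%). That last fit gave 4 between passages in Serum/LIF (14.2%) and 6 for the change of the EMM effect (22.2%), and library totals gave 3 between passages in EMM (24.9%). The causes were not tested.

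Outside P10 and P20 2i/LIF, correlations between libraries of the same title number did not all exceed 0.1 for any pair of groups (from −0.134 to 0.207 in the time course and −0.212 to 0.083 in the passage experiment). By the numbers in the time-course descriptions, Serum/LIF and 24 h of EMM had 0.28 and 0.152, both above 0.1. Whether same-numbered libraries share an origin is not settled by these values. The replicate block changed no call between passages in 2i/LIF. With it, over all comparisons, 164 results stayed as they were, 4 passed the threshold and 2 no longer did, and 24 h against 9 h had 1 gene called (13.6%). With a block by the number in the time-course descriptions (correlations −0.132 to 0.28), Tet3 at 3 h was 0.027.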
